A study of Homo sapiens with 6 samples.

Results

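The genes described here are 48 interferon-stimulated effector genes, chosen by symbol and found, all 48 of them, among the 60675 gene identifiers of the deposited tables. The list was drawn up with earlier results of these data known. Shares of members set beside shares of all genes are therefore descriptions only. They were measured in RNA pulled down from OCI-AML2, an established human acute myeloid leukaemia cell line, with J2, an antibody that binds double-stranded RNA. Cells of 1 group had been transduced with a short hairpin RNA against PNPT1, which encodes the mitochondrial exonuclease PNPase, and cells of the other with a short hairpin RNA against SUPV3L1 (SUV3), the helicase that unwinds RNA for that enzyme. Each group holds 3 libraries, stated to be biological replicates, and both groups share the cell line, the transduction and the precipitation. No library of control cells and no RNA from before precipitation was analysed here, so each comparison is SUPV3L1 knockdown against PNPT1 knockdown. Whether a transcript was more abundant in the cells or more of it was precipitated cannot be told apart. Likewise, in these bulk libraries fewer cells making a transcript and less of it per cell cannot be told apart. The sources used here do not say whether the libraries within a group carry the same hairpin. Each library's label holds a number of its own, whose meaning is not stated. Differences between hairpins and between replicates therefore cannot be told apart.

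Interferon-stimulated genes are switched on when interferon binds its receptor and JAK kinases signal to transcription factors that bind the interferon-stimulated response element (ISRE) near their promoters. Many also answer to IRF factors activated directly by sensors of double-stranded RNA, among them MDA5, which is known to detect mitochondrial double-stranded RNA that has reached the cytosol. Their products block viruses at entry, translation, replication and release, and several are also made at a steady level in resting myeloid cells.

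The regulatory sequence that many of the listed genes share is shown first. Members were named as interferon-stimulated genes, a class switched on through the ISRE. A high share of ISRE matches is therefore not independent of the choice of members. Of the 48 genes, 41 matched an entry in RefSeq's promoter table (GRCh38.p14), whose windows run from 250 bases before to 50 bases after each start site. IFITM2, USP18, TRIM22, IFIT2, MX2, GBP2 and PML were not matched. The ISRE core, read as TTTC, any 2 bases and TTTC again, and searched on both strands (GAAA, any 2 bases and GAAA on the other), was present for 29 of 41 members, 70.7%, against 4.38% of the 27305 genes in the table. The gamma-activated pattern TTCNNNGAA, which is its own reverse complement, was present for 11 of 41, 26.8%, against 9.38% of all genes. IFI6 carried 3 matches to the ISRE core between 93 and 156 bases before its start. Its upstream stretch (chr1:27672219-27672362, reverse strand, no annotated exon) is shown 5′ to 3′ with complete matches in capitals, followed by stretches of IFI16 (chr1:159008891-159008990, forward strand) and TRIM25 (chr17:56914081-56914149, reverse strand), in which there is no match:
IFI6: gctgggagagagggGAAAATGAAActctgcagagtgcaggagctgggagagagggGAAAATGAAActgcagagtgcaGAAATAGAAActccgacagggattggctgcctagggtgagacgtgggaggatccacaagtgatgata
IFI16: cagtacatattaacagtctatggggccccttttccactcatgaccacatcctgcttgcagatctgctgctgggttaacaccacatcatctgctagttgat
TRIM25: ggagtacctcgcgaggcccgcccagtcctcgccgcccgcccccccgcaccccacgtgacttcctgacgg

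For 10 further members the match nearest the start site is shown with 10 bases on either side, again with the complete match in capitals. The first 7 are members whose levels are followed below, and the last 3 (PSMB8, NMI and LAP3) had fitted log2 fold changes from -0.31 to 0.16.
IFI27 (chr14:94110631-94110660, forward strand): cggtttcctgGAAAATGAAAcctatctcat
LGALS3BP (chr17:78979962-78979991, reverse strand): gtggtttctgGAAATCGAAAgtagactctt
EPSTI1 (chr13:42992272-42992301, reverse strand): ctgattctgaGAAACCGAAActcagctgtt
IFI44L (chr1:78620365-78620394, forward strand): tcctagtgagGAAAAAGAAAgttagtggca
IFIT5 (chr10:89414554-89414583, forward strand): atttcttaagTTTCAGTTTCtgagcgctcg
DTX3L (chr3:122564322-122564351, forward strand): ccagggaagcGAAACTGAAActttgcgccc
SAMD9 (chr7:93118096-93118125, reverse strand): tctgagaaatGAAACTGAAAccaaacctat
PSMB8 (chr6:32844032-32844061, reverse strand): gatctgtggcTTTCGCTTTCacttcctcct
NMI (chr2:151289812-151289841, reverse strand): ttaaagcagtTTTCTTTTTCactgtctttt
LAP3 (chr4:17577005-17577034, forward strand): tggcactcagTTTCTATTTCccgggagttg

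The DTX3L match, chr3:122564332-122564341, is also that of PARP9, which is transcribed away from it on the opposite strand. IFI6 and IFI27 hold the same 10 letters, GAAAATGAAA, as do DTX3L and SAMD9 with GAAACTGAAA. Such a match describes the letters in the window and is not a measured binding site.

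Levels can be compared between genes only per length. On the deposited FPKM scale (fragments relative to gene length and library depth), the members' mean levels over the 6 libraries ran from 0.0697 for GBP1 to 45.6 for IFI6, with a median of 1.58. After IFI6 came IFITM2 at 25.7, the immunoproteasome subunit PSMB8 at 14.7, the virus tether BST2 at 10.3 and the ubiquitin ligase TRIM25 at 8.91. In all, 10 members had a mean of at least 5 FPKM and 19 were under 1 FPKM. The first place of IFI6 rested on SUPV3L1 knockdown replicate 3. IFI6 read 193 FPKM there, 38.1 and 8.65 FPKM in SUPV3L1 knockdown replicates 1 and 2, and 14.0, 9.05 and 10.2 FPKM in the PNPT1 knockdown. IFITM2, by contrast, read 17.9 to 29.5 FPKM across the 6 libraries.

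Total counts assigned to genes ranged from 5852090 to 11361371 per library, the lowest being PNPT1 knockdown replicate 3, where the fewest genes were detected too. That library also had the lowest scaling factor, 0.669, and the highest share of reads aligned to several places, 80.1%, against 65.7% to 71.6% in the others. The targeted genes were read first: PNPT1 measured 7.66, 18.9 and 17.1 CPM in the PNPT1 knockdown and 36.3, 27.6 and 21.4 CPM in the SUPV3L1 knockdown. SUPV3L1 came to 11.5, 18.2 and 25.8 CPM in the PNPT1 knockdown and 12.2, 12.3 and 9.42 CPM in its own knockdown. Each had the lower mean in its own knockdown, but neither passed the adjusted test. Of the markers of the labelled lineage, CD33 and SPI1 were present in each library and CD34 stood at 0. The 5 erythroid markers were at 0, and the lists for B cells, T and NK cells, and epithelial cells and fibroblasts summed to at most 5.31, 6.70 and 1.09 CPM in any library.

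CPM here means counts scaled to library depth after correction by the trimmed mean of M-values (TMM), and library values below are given in the order of replicates 1, 2 and 3. A value of 3 counts, used as the floor of detection, corresponds to 0.247 to 0.768 CPM, depending on the library, and covers counting error only. The 48 members together held 0.0883%, 0.0685% and 0.0432% of assigned counts in the PNPT1 knockdown and 0.103%, 0.0637% and 0.108% in the SUPV3L1 knockdown. Their summed level was 734, 626 and 646 CPM in the PNPT1 knockdown and 965, 601 and 1099 CPM in the SUPV3L1 knockdown. SUPV3L1 knockdown replicates 1 and 3 were thus above each PNPT1 knockdown library, while replicate 2 was the lowest of the 6. Without IFI6 the sums were 721, 618 and 628 CPM against 923, 593 and 881 CPM, so those statements held, but replicate 1 took the place of replicate 3 as the highest.

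**Figure D1:**
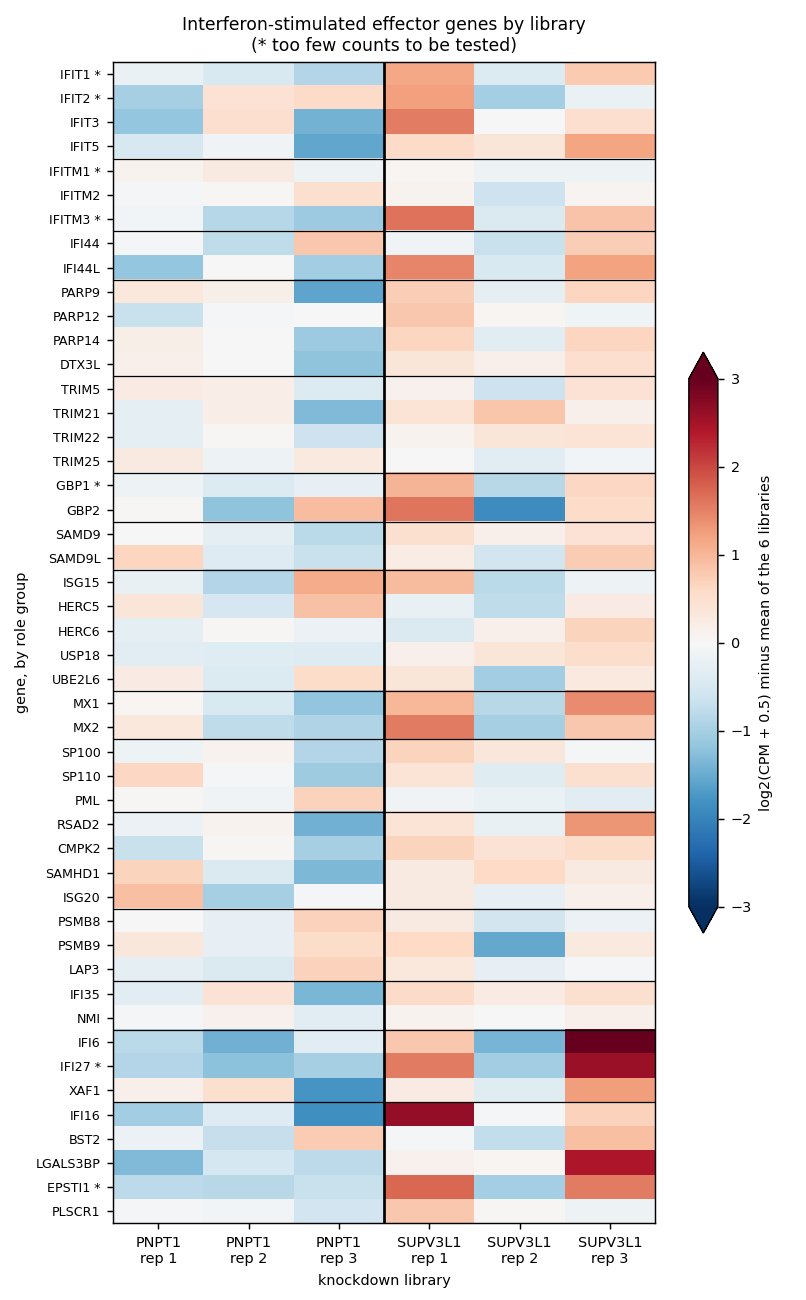
Level of each of the 48 members (rows, by role group) in each of the 6 libraries (columns), as log2(CPM + 0.5) minus the mean of that gene over the libraries. Red cells, above the gene's mean, gather in SUPV3L1 knockdown replicates 1 and 3, while replicate 2 resembles the PNPT1 knockdown columns. A star marks the 7 genes with too few counts to be tested.

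Of the 48 members, 41 passed the filter on low counts and were tested with edgeR's quasi-likelihood test among 13275 genes. None passed at an adjusted p of 0.05 (smallest adjusted p = 0.898), and no gene in the whole table did (0% called). In the SUPV3L1 knockdown 5 members had an edgeR unadjusted p under 0.05 and a higher level, which is 12.2% of the members tested against 1.70% of all genes tested. They were IFI16, LGALS3BP, IFI6, IFI44L and IFIT5. All of these but IFI6 cleared the filter in more SUPV3L1 than PNPT1 libraries, so their share is a description only. No member had an unadjusted p under 0.05 and a lower level, against 2.39% of all genes. With DESeq2, 18 genes of the table were called (0.136%), none of them a member, and the smallest adjusted p of a member was 0.0836, for IFI16.

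The fitted log2 fold change, SUPV3L1 knockdown minus PNPT1 knockdown, was above 0 for 30 of the 41 tested members (73.2%), against 50.7% of all genes tested. Its median was 0.57 over these members and 0.01 over all genes tested. This count depends in part on which genes could be tested. Of the 41, 11 cleared the count filter in more SUPV3L1 than PNPT1 libraries, and LGALS3BP cleared it only in SUPV3L1 libraries, so a low member that passed this way was likely to be placed above 0. With no filter, 37 of the 48 members were above 0, against 55.2% of 28015 genes, and 12 had an edgeR unadjusted p under 0.05 and a higher level, against 2.85% of all genes. In that fit 4 members passed at an adjusted p of 0.05 and were higher, against 0.382% of all genes. They were IFI6 (adjusted p = 2.42e-08), IFI16 (0.000103), IFI27 (0.00159) and LGALS3BP (0.0426), so these 4 calls depend on the filter. The log2 fold change of IFI6 was 2.75 ± 0.41 (SE) without the filter and 2.74 ± 0.90 with it. That of IFI16 was 2.68 ± 0.52 without and 2.66 ± 0.74 with it. The standard errors thus changed and the fold changes hardly did, while IFI6 ranged from 8.77 to 217 CPM among the SUPV3L1 libraries. Under a stricter filter, which kept genes with at least 50 counts in all 3 libraries of either knockdown, 18 of 26 members were above 0 (48.7% of 9144 genes), 2 had an unadjusted p under 0.05 and a higher level (1.39% of all genes) and 4 had their groups apart (4.31% of all genes).

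**Figure D2:**
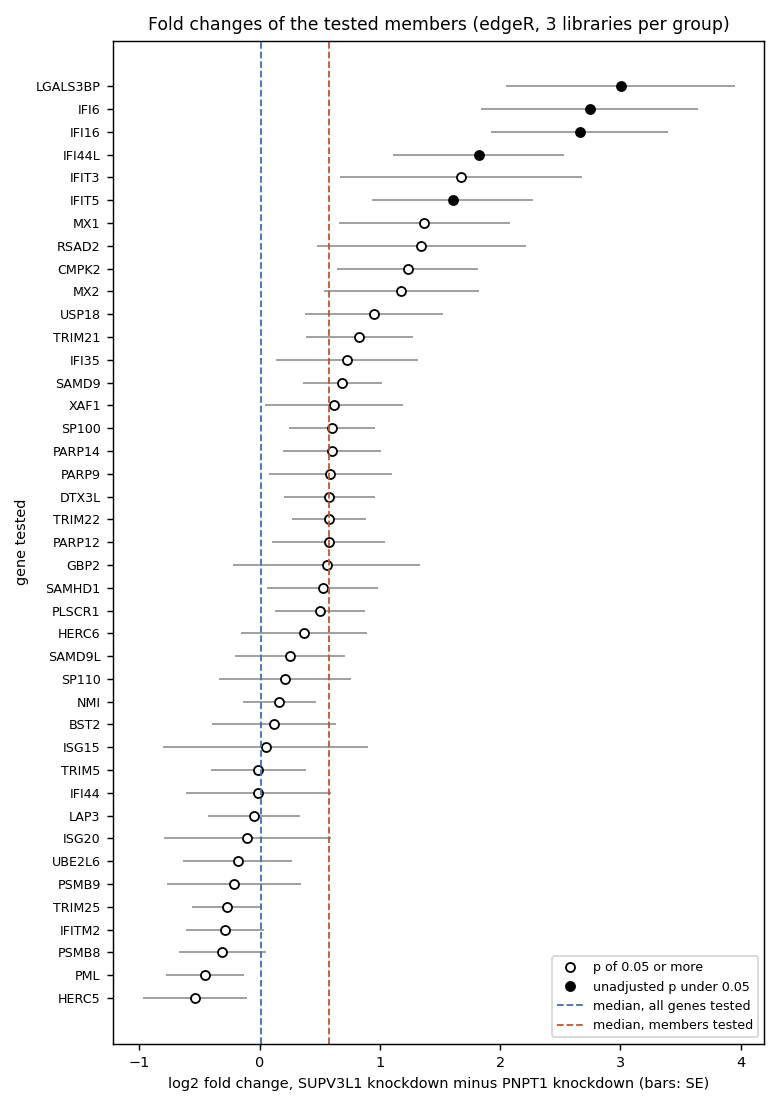
Fitted log2 fold change, SUPV3L1 knockdown minus PNPT1 knockdown, with its standard error (horizontal bars) for the 41 members tested, 3 libraries per group. Filled points have an unadjusted p under 0.05. The members' median of 0.57 is to the right of the median of all genes tested, 0.01, and none passed after adjustment.

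For 8 tested members each SUPV3L1 knockdown library was above each PNPT1 knockdown library, 19.5% of those tested against 4.62% of all genes. They were CMPK2, DTX3L, IFIT5, IFI16, LGALS3BP, SAMD9, TRIM22 and USP18. Of these, CMPK2, IFIT5, IFI16, LGALS3BP and USP18 cleared the filter in more SUPV3L1 than PNPT1 libraries, so this share too is a description only. On counts with no scaling factor 6 members were apart and higher in the SUPV3L1 knockdown (3.20% of all genes). DTX3L and SAMD9 overlapped there. On the deposited FPKM it was 6 as well (3.22% of all genes), with DTX3L, SAMD9 and TRIM22 overlapping and IFI44L apart. In the TMM-scaled values no member had its groups apart in the other direction, against 3.94% of all genes. With no scaling factor and on FPKM, PML was apart in that direction. The share of all genes apart in that direction was not taken on those scales. With 3 libraries against 3, an exact permutation test of a single gene cannot go below 0.1 (two-sided).

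SUPV3L1 knockdown replicate 2 was the lowest of its group for 32 of the 41 tested members (78.0%), and for 35.6% of all genes tested. Replicate 1 was the highest of its group for 22 members (53.7%, against 28.6% of all genes) and replicate 3 for 17 (41.5%, against 35.5%). In the PNPT1 knockdown, replicate 3 was the lowest for 23 members (56.1%, against 43.9% of all genes). Without SUPV3L1 knockdown replicate 2, 41 of 46 tested members were above 0 (48.3% of all genes). Of these members 11 had an unadjusted p under 0.05 and a higher level (2.21% of all genes) and 21 had their groups apart (9.44% of all genes). The 11 include IFIT1, IFITM3, IFI27 and EPSTI1, not tested in the main fit and over its filter's cutoff in SUPV3L1 libraries only. As replicate 2 was already seen to be the lowest, these counts are a description only. Without PNPT1 knockdown replicate 3, the library of lowest depth, 38 of 46 were above 0 (50.9% of all genes), 5 had an unadjusted p under 0.05 (1.58%) and 8 had their groups apart (7.42%). Without PNPT1 knockdown replicate 2, 10 of 45 had an unadjusted p under 0.05 (7.42% of all genes) and 14 had their groups apart (18.7%). Leaving out PNPT1 knockdown replicate 1 gave 9 of 46 members at an unadjusted p under 0.05 (1.47% of all genes). The counts with a PNPT1 library left out all include IFI27, EPSTI1 and LGALS3BP. These were over the main filter's cutoff in SUPV3L1 libraries only, as was IFITM3, which is in the count of 9. Those counts are a description only. Leaving out SUPV3L1 knockdown replicate 1 gave 2 of 40 (0.646%), IFI6 and LGALS3BP, and leaving out SUPV3L1 knockdown replicate 3 gave 1 of 42 (1.38%), IFI16. No member passed the adjusted test in any of these fits.

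Across all genes tested, the 2 most alike libraries were PNPT1 knockdown replicate 2 and SUPV3L1 knockdown replicate 2, with r = 0.973 of log2 CPM over 13275 genes, as a description across genes.

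**Figure D3:**
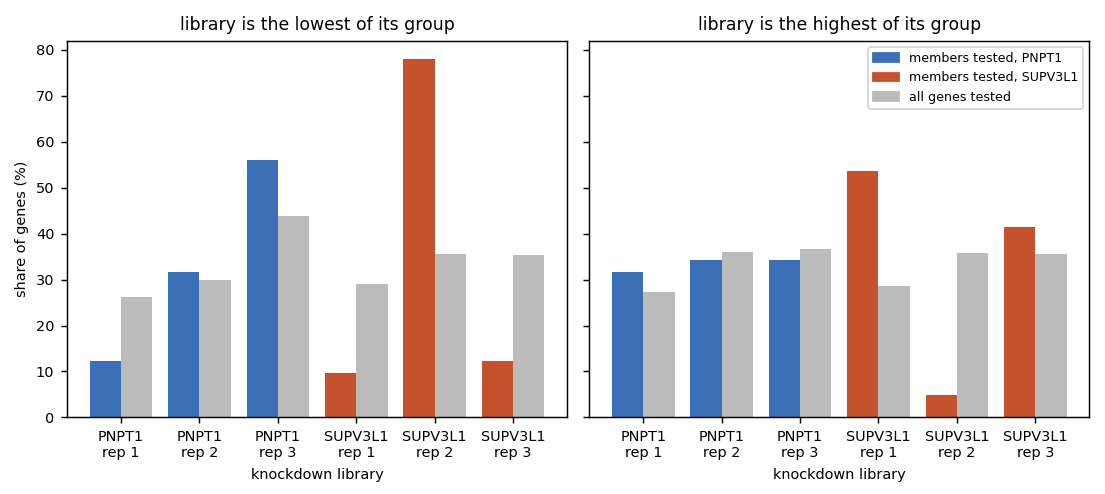
Share of genes (%) for which each library was the lowest (left) or the highest (right) of its own group of 3, for the 41 members tested (coloured) and for all 13275 genes tested (grey). SUPV3L1 knockdown replicate 2 was the lowest of its group for 78.0% of the members and 35.6% of all genes.

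Monocyte markers, as a sum that LYZ, S100A8 and S100A9 made up for the most part, were highest in the same libraries. Over 12 such genes the sum was 193, 282 and 241 CPM in the PNPT1 knockdown and 3617, 469 and 1799 CPM in the SUPV3L1 knockdown. Of the 12, 10 were tested, and all 10 had a log2 fold change above 0, against 50.7% of all genes tested. Of the 10, 9 had an edgeR unadjusted p under 0.05 and a higher level, against 1.70% of all genes, and none passed after adjustment. This list too was chosen with earlier results of these data known. VCAN, among the 9, had 7, 10 and 0 counts in the PNPT1 knockdown and cleared the count filter in SUPV3L1 libraries only. ITGAM, CSF1R, PTAFR and S100A12 cleared it in more SUPV3L1 than PNPT1 libraries. The counts of this list are therefore a description only. S100A12, a calcium-binding protein of monocytes and granulocytes, had 29, 20 and 5 counts in the PNPT1 knockdown and 2227, 12 and 29 counts in the SUPV3L1 knockdown. No marker of the 12 was at 0 in all libraries, but CD68 had no counts in the PNPT1 knockdown and at most 3 in the other, while its deposited FPKM was 18.8, 15.4 and 7.98 against 29.6, 17.5 and 57.0, so its counts do not give its level. Replicates 1 and 3 of the SUPV3L1 knockdown were thus the highest for the monocyte sum as for the members' sum, and replicate 1 was ahead in the marker sum and in the members' sum without IFI6. Single markers did not all follow this order: CSF1R was at 16.3, 12.4 and 5.63 CPM in the SUPV3L1 knockdown, MS4A6A at 4.52, 11.7 and 13.5 CPM, VCAN at 30.9, 3.49 and 1.30 CPM and PTAFR at 24.8, 15.6 and 28.2 CPM. For these 4 genes replicate 2 was also above each PNPT1 library. The share of counts from mitochondrial genes was 21.7%, 26.6% and 11.3% in the PNPT1 knockdown and 34.4%, 33.6% and 42.0% in the SUPV3L1 knockdown. The part of the monocyte markers and of the mitochondrial share in the members' values was not tested.

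LGALS3BP, IFI6 and IFI16 had the largest log2 fold changes of the 41 tested members. IFI6, a short hydrophobic protein known to protect cells from apoptosis, is encoded on chr1:27666061-27672218 on the reverse strand (GRCh38, GENCODE 29). It read 13.3, 8.38 and 18.7 CPM in the PNPT1 knockdown and 41.5, 8.77 and 217 CPM in the SUPV3L1 knockdown. Its groups overlapped, because SUPV3L1 knockdown replicate 2 was within the range of the PNPT1 libraries. The log2 fold change was 2.74 ± 0.90 (SE, n = 3 per group; edgeR unadjusted p = 0.0119, adjusted p = 0.898). Without SUPV3L1 knockdown replicate 3 it was 0.92.

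IFI16 (chr1:158999968-159055155, forward strand) encodes a nuclear sensor of DNA. It read 2.59, 4.37 and 1.28 CPM in the PNPT1 knockdown and 39.0, 5.66 and 9.75 CPM in the SUPV3L1 knockdown, and the groups did not overlap. Replicate 1 stood far above the other libraries. The log2 fold change of 2.66 ± 0.74 (SE; edgeR unadjusted p = 0.00455, adjusted p = 0.898) was 1.43 without SUPV3L1 knockdown replicate 1. Of the 5 members with an unadjusted p under 0.05, IFI16 alone had no ISRE core match in its promoter window. No window searched for IFI16 reached the gene start given above, so the sequence there was not searched.

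LGALS3BP, a secreted glycoprotein that binds galectin-3, is on chr17:78971238-78980109 on the reverse strand. It had 2, 8 and 2 counts in the PNPT1 knockdown and 17, 14 and 82 counts in the SUPV3L1 knockdown. These are 0.199, 0.699 and 0.512 CPM against 1.40, 1.32 and 8.88 CPM. The groups did not overlap, and replicate 3 was again far above the rest. The log2 fold change was 3.00 ± 0.95 (SE; edgeR unadjusted p = 0.00976, adjusted p = 0.898), and 1.51 without SUPV3L1 knockdown replicate 3.

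IFI27, a relative of IFI6 in the mitochondrial membrane, and EPSTI1, an epithelial and stromal interaction protein, had too few counts to be tested and were chosen after their values were seen. IFI27 had 6, 4 and 2 counts in the PNPT1 knockdown and 66, 5 and 106 counts in the SUPV3L1 knockdown. EPSTI1 had 2, 2 and 1 counts against 42, 1 and 28 counts. Both were near the floor in the PNPT1 libraries and in SUPV3L1 knockdown replicate 2, and well above it only in SUPV3L1 knockdown replicates 1 and 3. XAF1, a pro-apoptotic partner of XIAP, measured 19.1 ± 11.995 CPM in the PNPT1 knockdown and 29.7 ± 17.4 CPM in the SUPV3L1 knockdown (SD, n = 3), with overlapping groups. A noncoding gene, PRAL, lies within XAF1 on the opposite strand and shares 34.7% of the 50-base stretches of XAF1. Reads from those stretches could not be told apart.

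**Figure D4:**
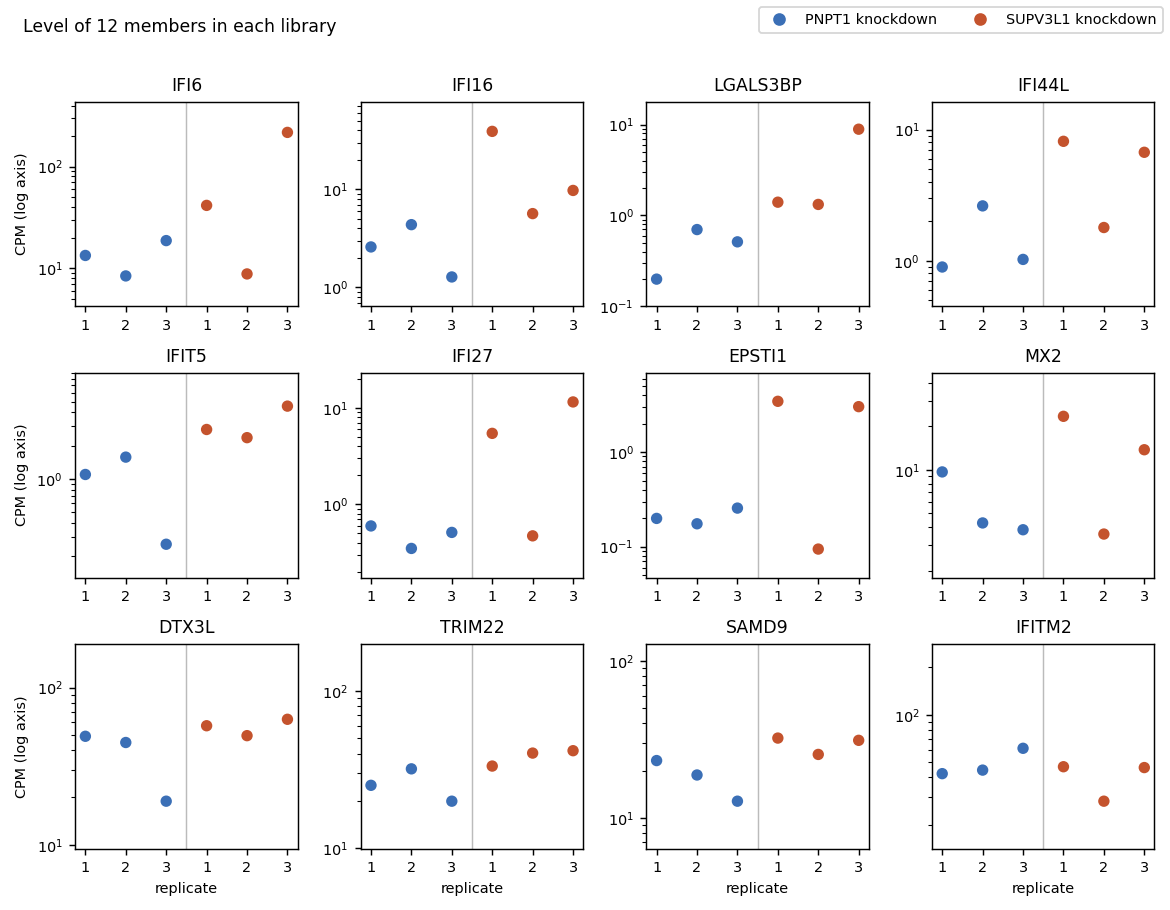
CPM of 12 members in each library (log axis, a scale of its own in each panel), PNPT1 knockdown replicates 1 to 3 in blue and SUPV3L1 knockdown replicates 1 to 3 in orange. IFI6 reaches 217 CPM in SUPV3L1 knockdown replicate 3 and IFI16 reaches 39.0 CPM in replicate 1, while IFITM2 overlaps between the groups. EPSTI1 points at or below 0.256 CPM stand for 1 or 2 counts.

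The IFIT proteins, which bind foreign RNA ends and block its translation, were sparse in these libraries. The 4 genes summed to 1.59, 4.28 and 1.54 CPM in the PNPT1 knockdown and to 10.0, 3.49 and 7.58 CPM in the SUPV3L1 knockdown. SUPV3L1 knockdown replicates 1 and 3 were above the PNPT1 libraries and replicate 2 was among them. The ratio of means was 2.85, between 2.23 and 4.46 when any 1 library was left out. IFIT1 and IFIT2 had too few counts to be tested: IFIT1 had 3, 2 and 0 counts against 19, 2 and 10, and IFIT2 had 1, 13 and 5 against 28, 1 and 5. IFIT3, at 1, 16 and 0 counts against 41, 9 and 13, had overlapping groups.

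IFIT5 (chr10:89414586-89421001, forward strand), which binds 5′-triphosphate RNA as a single protein, was the most abundant of the family per length, at a mean of 0.394 FPKM. It came to 1.09, 1.57 and 0.256 CPM in the PNPT1 knockdown and 2.80, 2.36 and 4.55 CPM in the SUPV3L1 knockdown. Here replicate 2 was above the PNPT1 libraries as well, so the groups did not overlap. The log2 fold change was 1.61 ± 0.67 (SE; edgeR unadjusted p = 0.0371, adjusted p = 0.898). None of its 50-base stretches is shared with another gene, so its reads are not split with the other IFIT genes.

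The IFITM proteins restrict viruses at the endosomal membrane, and here the family was almost IFITM2 alone. IFITM2 supplied 98.0% of the family's CPM, and per length its mean of 25.7 FPKM compared with 0.401 FPKM for IFITM1 and 0.557 FPKM for IFITM3. It read 42.2, 44.4 and 61.2 CPM in the PNPT1 knockdown and 46.7, 28.2 and 46.1 CPM in the SUPV3L1 knockdown, with overlapping groups and a log2 fold change of -0.29 ± 0.33 (SE). IFITM1 had at most 2 counts in any library. IFITM3 had 5, 1 and 0 counts in the PNPT1 knockdown and 34, 3 and 13 counts in the SUPV3L1 knockdown, an order of libraries unlike that of IFITM2. Between 32.0% and 35.2% of the 50-base stretches of these 3 genes also occur in other genes, so how reads were divided among them is uncertain.

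IFI44 and IFI44L are neighbours on chromosome 1 and related in sequence, yet no 50-base stretch of either occurs in another gene. IFI44L (chr1:78619922-78646145), known to damp interferon responses, stood at 0.896, 2.62 and 1.02 CPM in the PNPT1 knockdown and 8.14, 1.79 and 6.71 CPM in the SUPV3L1 knockdown. Its SUPV3L1 knockdown replicate 2 lay among the PNPT1 libraries. The log2 fold change was 1.82 ± 0.71 (SE; edgeR unadjusted p = 0.0277, adjusted p = 0.898), 2.52 without PNPT1 knockdown replicate 2 and 1.43 without SUPV3L1 knockdown replicate 1. IFI44 (chr1:78649796-78664078) read 4.78, 2.71 and 8.96 CPM against 4.52, 2.92 and 8.55 CPM. Its means, 5.48 and 5.33 CPM, were nearly equal, and its log2 fold change was -0.01 ± 0.61 (SE). Per length IFI44 was the more abundant of the pair, with a mean of 1.74 FPKM against 0.227 FPKM. Whether the fold changes of the 2 genes differ was not tested.

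The PARP group holds PARP9, PARP12 and PARP14, members of the ADP-ribosyltransferase family, and DTX3L, the ubiquitin ligase that works in a complex with PARP9. The 4 genes summed to 139.9, 128 and 58.6 CPM in the PNPT1 knockdown and 191, 117 and 188 CPM in the SUPV3L1 knockdown. Again replicate 2 of the SUPV3L1 knockdown was within the other group's range, and PNPT1 knockdown replicate 3 was well below every other library. The ratio of means was 1.52, and 1.23 without that library. All 4 log2 fold changes lay between 0.57 and 0.60, with no unadjusted p under 0.05.

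PARP14 measured 71.4, 62.9 and 29.4 CPM in the PNPT1 knockdown and 100.3, 50.3 and 99.0 CPM in the SUPV3L1 knockdown. DTX3L (chr3:122564238-122575203, forward strand) came to 49.0, 44.7 and 18.9 CPM against 57.1, 49.4 and 62.8 CPM. Its groups did not overlap, with PNPT1 knockdown replicate 1 just below SUPV3L1 knockdown replicate 2, but on FPKM they did, at 7.44 and 6.65 FPKM in these 2 libraries. Without PNPT1 knockdown replicate 3 the log2 fold change of DTX3L was 0.26 in place of 0.58 and that of PARP14 was 0.30 in place of 0.60. PARP9 stood at 15.7, 14.1 and 3.84 CPM against 21.4, 10.2 and 20.03 CPM. The pair overlaps head to head on opposite strands, but the shared share of their 50-base stretches was small, 1.31% of those of PARP9 and 2.03% of those of DTX3L.

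The TRIM genes encode ubiquitin ligases: TRIM5 acts on retroviral capsids, TRIM21 binds antibody-coated viruses in the cytosol, TRIM22 restricts viral transcription and TRIM25 modifies RIG-I. As a group their sums lay close together, at 148, 133 and 133 CPM against 144, 135 and 149.97 CPM. The ratio of means was 1.04 on counts and 1.24 on the deposited FPKM. TRIM25, the most abundant per length at 8.91 FPKM, read 95.9, 71.4 and 98.3 CPM in the PNPT1 knockdown and 79.5, 64.7 and 76.0 CPM in the SUPV3L1 knockdown. TRIM22 had its groups apart, higher in the SUPV3L1 knockdown, at 25.2, 32.0 and 19.96 CPM against 33.4, 40.4 and 41.8 CPM, though not on FPKM. Its log2 fold change was 0.58 ± 0.31 (SE; edgeR adjusted p = 0.898). TRIM21, which measured 9.65, 13.6 and 4.35 CPM against 15.7, 21.1 and 13.1 CPM, and SAMHD1 were the 2 tested members for which SUPV3L1 knockdown replicate 2 was the highest of its group. TRIM5 and TRIM22 overlap on opposite strands of chromosome 11.

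The GBP proteins are large GTPases that coat intracellular pathogens. GBP2 came to 11.8, 4.72 and 22.3 CPM in the PNPT1 knockdown and 36.0, 2.74 and 17.2 CPM in the SUPV3L1 knockdown. Both groups spanned several-fold, with the lowest value in each at replicate 2, and the log2 fold change was 0.56 ± 0.78 (SE). It changed sign, to -0.37, without SUPV3L1 knockdown replicate 1. GBP1 had 3, 2 and 1 counts against 16, 0 and 8 counts.

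SAMD9 and SAMD9L are neighbouring paralogs on chromosome 7 that curb translation and cell growth, and they share no 50-base stretch. Together they summed to 53.1, 33.4 and 24.6 CPM in the PNPT1 knockdown and 54.4, 38.2 and 63.7 CPM in the SUPV3L1 knockdown. SAMD9 stood at 23.2, 18.8 and 12.8 CPM against 32.2, 25.4 and 31.2 CPM, with groups apart. On FPKM they overlapped, with 3.03 FPKM in PNPT1 knockdown replicate 1 and 2.80 FPKM in SUPV3L1 knockdown replicate 2. Its log2 fold change was 0.69 ± 0.33 (SE; edgeR adjusted p = 0.898). SAMD9L read 30.0, 14.6 and 11.8 CPM against 22.2, 12.8 and 32.5 CPM, with groups overlapping and a log2 fold change of 0.25 ± 0.46 (SE).

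**Figure D5:**
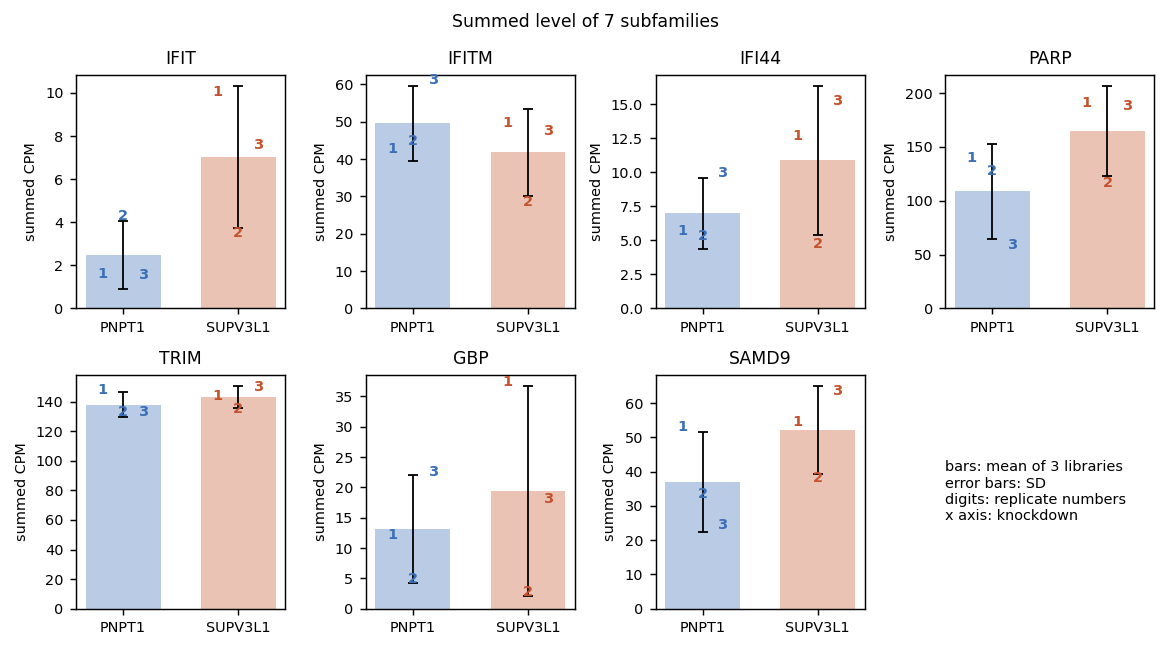
Summed CPM of 7 subfamilies in the PNPT1 knockdown (blue) and SUPV3L1 knockdown (orange). Bars are means of 3 libraries, error bars are SD and digits mark the replicates. The IFIT means differ by 2.85 times and the TRIM means by 1.04 times, and in each of the 7 panels the 2 groups overlap.

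Among the conjugation machinery of ISG15, a ubiquitin-like modifier, the summed level was not higher in the SUPV3L1 knockdown. The 5 genes summed to 46.0, 28.8 and 63.2 CPM in the PNPT1 knockdown and 41.8, 24.2 and 49.5 CPM in the SUPV3L1 knockdown. ISG15 itself had 11, 6 and 14 counts against 38, 6 and 11 counts. HERC5, its main ligase in human cells, measured 23.5, 12.6 and 33.8 CPM against 15.5, 10.5 and 21.8 CPM, with a log2 fold change of -0.54 ± 0.43 (SE), the lowest of the 41 tested. UBE2L6, the conjugating enzyme, averaged 16.5 ± 5.42 CPM against 14.4 ± 6.64 CPM (SD, n = 3), and HERC6, a relative of HERC5, 3.45 ± 0.435 against 4.48 ± 1.84 CPM. USP18, the protease that removes ISG15 and restrains the interferon receptor, was the exception with its groups apart, at 1.06 ± 0.0362 CPM against 2.06 ± 0.328 CPM. However, 23.4% of its 50-base stretches occur in other genes, nearly all in its copy USP41.

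The MX proteins are dynamin-like GTPases, MX1 acting on many RNA viruses and MX2 on HIV. MX2 came to 9.65, 4.28 and 3.84 CPM in the PNPT1 knockdown and 23.4, 3.58 and 13.8 CPM in the SUPV3L1 knockdown. MX1 stood at 3.09, 2.01 and 1.02 CPM against 6.33, 1.41 and 8.66 CPM. In both genes, SUPV3L1 knockdown replicates 1 and 3 lay above the PNPT1 libraries and replicate 2 within or below them. The log2 fold changes were 1.18 ± 0.65 for MX2 and 1.37 ± 0.71 for MX1 (SE), with no unadjusted p under 0.05. Leaving out SUPV3L1 knockdown replicate 1 gave 0.52 for MX2.

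SP100, SP110 and PML encode nuclear body proteins. SP100 read 24.0, 28.9 and 14.3 CPM in the PNPT1 knockdown and 43.0, 34.0 and 25.9 CPM in the SUPV3L1 knockdown. PML averaged 30.2 ± 9.63 CPM against 21.9 ± 1.79 CPM, and SP110 averaged 5.37 ± 3.13 CPM against 6.35 ± 2.00 CPM (SD, n = 3). All 3 overlapped between groups in CPM. PML was apart and lower in the SUPV3L1 knockdown with no scaling factor and on FPKM. Its FPKM values were 1.84, 1.61 and 1.70 against 1.47, 1.36 and 1.19. The sum of the 3 genes was 57.9 ± 0.355 CPM against 62.5 ± 10.4 CPM.

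Of the enzymes that act on nucleotides and RNA, SAMHD1, which degrades dNTPs, was the most abundant per length, at 5.13 FPKM. It measured 47.1, 22.0 and 11.3 CPM in the PNPT1 knockdown and 35.7, 44.9 and 35.8 CPM in the SUPV3L1 knockdown. The PNPT1 libraries spanned the whole range of the other group. CMPK2, a mitochondrial nucleotide kinase, had its groups apart at low levels, 1.32 ± 0.692 CPM against 3.24 ± 0.306 CPM. RSAD2 (viperin), which makes a chain-terminating nucleotide and lies head to head with CMPK2 on chromosome 2, had 7, 11 and 0 counts against 16, 7 and 27 counts. ISG20, an RNA exonuclease, averaged 2.16 ± 1.67 CPM against 2.02 ± 0.456 CPM (SD, n = 3).

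The 3 genes that supply peptides to MHC class I had similar means in both groups. PSMB8 came to 39.0, 33.1 and 64.2 CPM in the PNPT1 knockdown and 47.9, 26.7 and 34.9 CPM in the SUPV3L1 knockdown. The immunoproteasome subunit PSMB9 averaged 10.6 ± 2.87 CPM against 9.08 ± 5.65 CPM, and the aminopeptidase LAP3 averaged 23.6 ± 11.05 CPM against 22.6 ± 4.62 CPM (SD, n = 3). All 3 had overlapping groups and log2 fold changes from -0.31 to -0.05, whose sign depended on single libraries. Without PNPT1 knockdown replicate 3, PSMB8 was at 0.0099 and LAP3 at 0.38, and without SUPV3L1 knockdown replicate 2, PSMB9 was at 0.21 and LAP3 at 0.07. PSMB8 shares 18.2% of its 50-base stretches with its antisense gene PSMB8-AS1.

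The remaining members also overlapped between groups. NMI, an interferon-induced adaptor protein, stood at 20.4, 23.7 and 16.9 CPM in the PNPT1 knockdown and 23.0, 21.7 and 23.8 CPM in the SUPV3L1 knockdown. Its binding partner IFI35 averaged 2.80 ± 1.90 CPM against 4.82 ± 0.612 CPM (SD, n = 3). PLSCR1, a phospholipid scramblase that restricts viral entry, read 17.1, 16.8 and 11.8 CPM against 31.2, 18.1 and 15.7 CPM. BST2, which tethers budding virions, averaged 15.6 ± 8.45 CPM against 16.7 ± 9.82 CPM.

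Fold changes were also read by level, beside the 50.7% of all genes tested that were above 0. Of the 10 tested members at 5 FPKM or more, 6 were above 0, and the median log2 fold change was 0.32. Of the 19 between 1 and 5 FPKM it was 13, with a median of 0.25. Of the 12 under 1 FPKM it was 11, with a median of 1.29. The last group holds most of the members that cleared the count filter mainly in SUPV3L1 libraries, so its count is a description only. Members with an ISRE core match had 17 of 23 tested log2 fold changes above 0 and a median of 0.58, and those without had 9 of 12 and a median of 0.45. The difference between the groups of promoters was not tested.

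The genes upstream of these effectors were read from lists of the pathway. Of 9 interferon genes, 8 had no count in any library, and the other, IFNL2, had 1 count in PNPT1 knockdown replicate 3. Of the receptor chains and kinases 8 were tested, 2 had a log2 fold change above 0 (50.7% of all genes) and none an unadjusted p under 0.05. JAK2, a kinase of the interferon-gamma receptor, measured 60.4, 25.1 and 36.3 CPM in the PNPT1 knockdown and 23.3, 24.6 and 33.0 CPM in the SUPV3L1 knockdown. IFNAR1, a chain of the type I receptor, came to 32.9, 36.3 and 9.98 CPM against 41.2, 39.5 and 44.5 CPM. Its groups were apart, with PNPT1 knockdown replicate 3 well below the rest.

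All 11 transcription factors were tested and 6 were above 0 (50.7% of all genes). Of the 11, 1 had an edgeR unadjusted p under 0.05 and a higher level (1.70% of all genes), with none passing after adjustment. That 1 was IRF8, a factor of monocyte and dendritic cell development, at 46.8, 55.7 and 33.5 CPM in the PNPT1 knockdown and 96.9, 94.0 and 91.0 CPM in the SUPV3L1 knockdown. The 3 SUPV3L1 libraries were close together and all above the others, replicate 2 included, and the log2 fold change was 1.05 ± 0.30 (SE; edgeR unadjusted p = 0.00582, adjusted p = 0.898). NFKB1, a subunit of NF-kappaB, stood at 10.6, 22.1 and 14.6 CPM against 30.8, 22.9 and 27.9 CPM, with groups apart. Of the negative regulators 4 were tested and 1 was above 0 (50.7% of all genes). The phosphatase PTPN6 averaged 131 ± 36.6 CPM against 95.2 ± 32.4 CPM (SD, n = 3), and the receptor inhibitor SOCS3 had 3, 1 and 7 counts against 35, 0 and 24 counts.

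Sensors and enzymes of double-stranded RNA formed the last list. Of 14 genes 11 were tested, 10 were above 0 (50.7% of all genes) and the median log2 fold change was 0.45. Of the 11, 2 had an edgeR unadjusted p under 0.05 and a higher level (1.70% of all genes), none after adjustment. Both were oligoadenylate synthetases, which make the activator of RNase L. OAS2 read 6.37, 7.68 and 7.93 CPM in the PNPT1 knockdown and 28.4, 6.98 and 49.8 CPM in the SUPV3L1 knockdown, with a log2 fold change of 1.96 ± 0.59 (SE; edgeR unadjusted p = 0.00757, adjusted p = 0.898). Its SUPV3L1 knockdown replicate 2 lay among the PNPT1 libraries. OAS3 measured 0.299, 2.27 and 0.768 CPM against 17.3, 3.11 and 4.44 CPM, with groups apart and replicate 1 the highest, as for IFI16. It cleared the count filter in more SUPV3L1 than PNPT1 libraries, so the share for this list is a description only.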

How the data were processed

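The deposited per-library tables hold whole-number read counts per Ensembl gene, followed by 5 summary lines that were left out of library sizes (counts assigned to genes were 7.06% to 16.0% of the total). The deposited FPKM table covers the same genes. HTSeq, StringTie 2.1.4, SAMtools 1.14 and HISAT2 2.2.1 are named, with GRCh38, per the submitters' processing notes. The sources used here do not state the strand setting of the counting or its gene annotation. Reads from stretches that overlapping or antisense genes share therefore cannot be told apart.

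Counts were scaled by TMM and tested with edgeR 4.0.16 (R 4.3.3; filterByExpr, glmQLFit, glmQLFTest, Benjamini-Hochberg over all genes tested, threshold 0.05), after a check on simulated data. Alternatives were DESeq2 1.42.0, limma 3.58.1 on log2(FPKM + 0.1) and log2(FPKM + 1), other filters, no scaling and leaving out each library. Standard errors are the log2 fold change divided by the square root of F. Of the members, 41 were tested. Not tested were IFIT1, IFIT2, IFITM1, IFITM3, GBP1, IFI27 and EPSTI1.

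The members and lists were chosen with earlier results of these data known. Library values were given for members with an unadjusted p under 0.05, with groups apart and a mean of at least 5 CPM, or highest in their role group, and for the 2 genes of smallest p per pathway list. Others were added to complete families. Replicates were numbered in accession order. No pair of libraries was a duplicate. Positions and 50-base stretches come from GENCODE 29.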

Additional observations from a re-analysis of the deposited data

How the results depend on the processing

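No paired analysis was possible because the labels carry no number shared between the groups. No gene was called in edgeR; DESeq2 called 18 and edgeR without a count filter 187, among them 4 members: IFI6 (adjusted p = 2.42e-08), IFI16 (0.000103), IFI27 (0.00159) and LGALS3BP (0.0426), against 0.382% of genes called higher. The count of genes called was 0 to 1 when any library was left out, the 1 being SERPINA1 without SUPV3L1 knockdown replicate 2. Without the count filter, the standard errors of IFI6, IFI16 and LGALS3BP were smaller at nearly the same fold changes. The causes were not tested, save that a stricter filter tests fewer genes.

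Members above 0 numbered 18 of 26 under the stricter filter of 50 counts (48.7% of all genes). When a library was left out they numbered 28 to 41, with medians of 0.40 to 0.76, and the number tested differed between fits. The 28 were without SUPV3L1 knockdown replicate 1 (50.4% of all genes) and the 41 without replicate 2 (48.3%). Members with an unadjusted p under 0.05 numbered 12 with no filter (2.85% of all genes), 2 under the stricter filter (1.39%) and 1 to 11 when a library was left out. The lowest, 1, was without SUPV3L1 knockdown replicate 3 (1.38% of all genes) and the highest, 11, without replicate 2 (2.21%). The 11 include IFIT1, IFITM3, IFI27 and EPSTI1, over the main filter's cutoff in SUPV3L1 libraries only. Without SUPV3L1 knockdown replicate 1 there were 2 (0.646% of all genes). Without PNPT1 knockdown replicate 1 there were 9 (1.47%), and without PNPT1 knockdown replicate 2 there were 10 (7.42%). The 9 and the 10 include IFI27, EPSTI1 and LGALS3BP, also over that cutoff in SUPV3L1 libraries only. Members with groups apart and higher in the SUPV3L1 knockdown numbered 4 under the stricter filter (4.31%) and 8 to 21 when a library was left out. They were 21 without SUPV3L1 knockdown replicate 2 (9.44% of all genes) and 14 without PNPT1 knockdown replicate 2 (18.7%). The TRIM ratio was 1.24 on FPKM.

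The log2 fold change of IFI44, near 0, reversed to 0.16 with no scaling, 0.015 with no filter, 0.18 and 0.13 on FPKM, and 0.50, 0.08 and 0.27 without PNPT1 knockdown replicate 3 and SUPV3L1 knockdown replicates 1 and 2 (range -0.52 to 0.50 when a library was left out). GBP2 reversed to -0.37 without SUPV3L1 knockdown replicate 1 (range to 1.17) and PSMB8 to 0.0099 without PNPT1 knockdown replicate 3 (range from -0.57). Ranges when a library was left out were 0.78 to 2.26 for the GBP ratio, 1.25 to 1.99 for IFI44, 1.23 to 1.77 for PARP and 1.20 to 1.795 for SAMD9.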
